A study of Mus musculus with 6 samples.

Results

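Aire, the autoimmune regulator gene, had 9 rows among the 4658 alternative splicing events that could be matched over 6 RNA sequencing libraries. Its members were every row that carried the symbol Aire, numbered 1 to 9 by their order within the gene, and all 6 libraries listed the same number of them. That an event is the same one in every library rests on this order alone. For each event the authors deposited an inclusion frequency, a fraction from 0 (never included) to 1 (always included). The question was whether knockdown of Raver2 or of Setd2 was accompanied by a change in how Aire's own transcript is spliced.

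The cells were primary mouse medullary thymic epithelial cells (mTECs), sorted as CD45-, EpCAM+, Ly51- and MHC class II+ and cultured on a fibrin gel that held human dermal fibroblasts. All 3 groups received a lentivirus made from the pLKO.3G vector, which carries eGFP, and were collected 5 days after infection by a sort for living, MHC class II+ and GFP+ cells. The control group (Ctr, 2 libraries) expressed a hairpin against bacterial LacZ. The Raver2 group (2 libraries) expressed hairpin sh1 or sh2 against Raver2, whose protein binds RNA together with the polypyrimidine tract-binding protein PTB. The Setd2 group (2 libraries) likewise expressed sh1 or sh2 against Setd2, the enzyme that places trimethylation on histone H3 lysine 36. The 2 libraries of a knockdown group thus differ in hairpin as well as in sample, and the origin of the libraries (separate or pooled mice, separate cultures), the mouse strain and the age were not given in the sources used here. The p-values therefore measure the spread between these libraries only, which may be technical.

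Aire is a transcriptional regulator of the thymic medulla. It acts at the chromatin of many genes at once and releases stalled RNA polymerase, so that mTECs express proteins otherwise restricted to peripheral tissues and developing T cells that react to them can be removed or turned into regulatory T cells. The protein has an N-terminal CARD domain through which it forms multimers, a SAND domain and a pair of PHD fingers, the first of which reads unmodified histone H3. Loss of Aire function causes multi-organ autoimmunity in mice and humans. Alternative splicing of the transcript itself can therefore alter or truncate these domains.

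The gene lies on the minus strand of chromosome 10, from 78030022 to 78043610 (mm10, GENCODE M21, 13589 bases), and has 16 annotated transcripts. Of these, 11 are protein coding with 12 to 14 exons, 2 are annotated as targets of nonsense-mediated decay and 3 as retained intron transcripts. The deposited rows name the gene and not the exon, so none of the 9 events could be assigned to an exon or splice site. The annotated alternative parts are shown here as parts that an event of Aire could consist of. An event may also lie outside them, since the event class is not given. Alternative first and last exons were not sought. Comparing annotated transcripts gave 4 cassette exons, 1 alternative donor, 2 alternative acceptors and 1 retained intron, and in addition 2 of the cassette exons can be included or left out as a pair.

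The central pair of alternative exons lies towards the 3′ end of the gene. The upstream cassette exon (chr10:78035657-78035833, 177 bases, a multiple of 3) is present in 7 of the 15 transcripts that span it, and the downstream one (chr10:78034586-78034707, 122 bases, not a multiple of 3) in 10 of 15. The downstream exon encodes the core of the second PHD finger. The coding sequence is 1653 bases long (stop codon excluded) in Aire-201, which has both exons, 1476 in Aire-203, which lacks the upstream exon, and 1224 in Aire-216, which lacks both. In the lines that follow, sequences are from GENCODE M21 transcripts and read 5′ to 3′ on the coding strand, with the alternative part in capitals and 20 bases of the neighbouring exon sequence on each side in lower case.
Cassette exon of 177 bases: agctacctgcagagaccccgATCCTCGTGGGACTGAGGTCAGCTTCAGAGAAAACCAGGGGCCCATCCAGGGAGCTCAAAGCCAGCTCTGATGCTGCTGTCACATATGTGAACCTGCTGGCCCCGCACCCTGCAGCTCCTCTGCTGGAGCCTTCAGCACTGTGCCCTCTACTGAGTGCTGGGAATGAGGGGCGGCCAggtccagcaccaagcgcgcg
Cassette exon of 122 bases: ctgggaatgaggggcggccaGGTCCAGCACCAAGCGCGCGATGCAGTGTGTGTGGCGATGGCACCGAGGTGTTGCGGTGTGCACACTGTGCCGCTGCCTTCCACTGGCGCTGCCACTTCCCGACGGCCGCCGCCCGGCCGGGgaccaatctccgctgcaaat

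Both other cassette exons occur in a single transcript each, and both of those transcripts are annotated for nonsense-mediated decay. The exon of 53 bases (chr10:78043217-78043269) belongs to Aire-206, whose annotated coding sequence is 201 bases, and the exon of 58 bases (chr10:78039504-78039561) belongs to Aire-211, with 951 bases. Aire-206 also retains the intron of 949 bases between the central pair of exons. These sequences are shown because their inclusion goes with a shortened reading frame in the annotation.
Cassette exon of 53 bases: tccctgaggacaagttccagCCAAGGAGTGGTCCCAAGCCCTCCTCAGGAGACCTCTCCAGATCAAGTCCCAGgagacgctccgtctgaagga
Cassette exon of 58 bases: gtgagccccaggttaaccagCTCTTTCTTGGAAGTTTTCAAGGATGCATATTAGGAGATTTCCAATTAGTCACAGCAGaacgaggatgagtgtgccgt

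Small splice site shifts make up the rest. An alternative donor lengthens an exon by 12 bases (chr10:78039931-78039942) in 9 of 14 transcripts, and an alternative acceptor lengthens another by 3 bases (chr10:78037986-78037988) in 7 of 16. Both keep the reading frame. A further acceptor 5 bases downstream (chr10:78039738-78039742) is used by Aire-208 alone.
Alternative donor, 12 bases: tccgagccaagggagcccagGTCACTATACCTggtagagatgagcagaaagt
Alternative acceptor, 3 bases: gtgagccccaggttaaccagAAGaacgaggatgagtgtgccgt

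**Figure D1:**
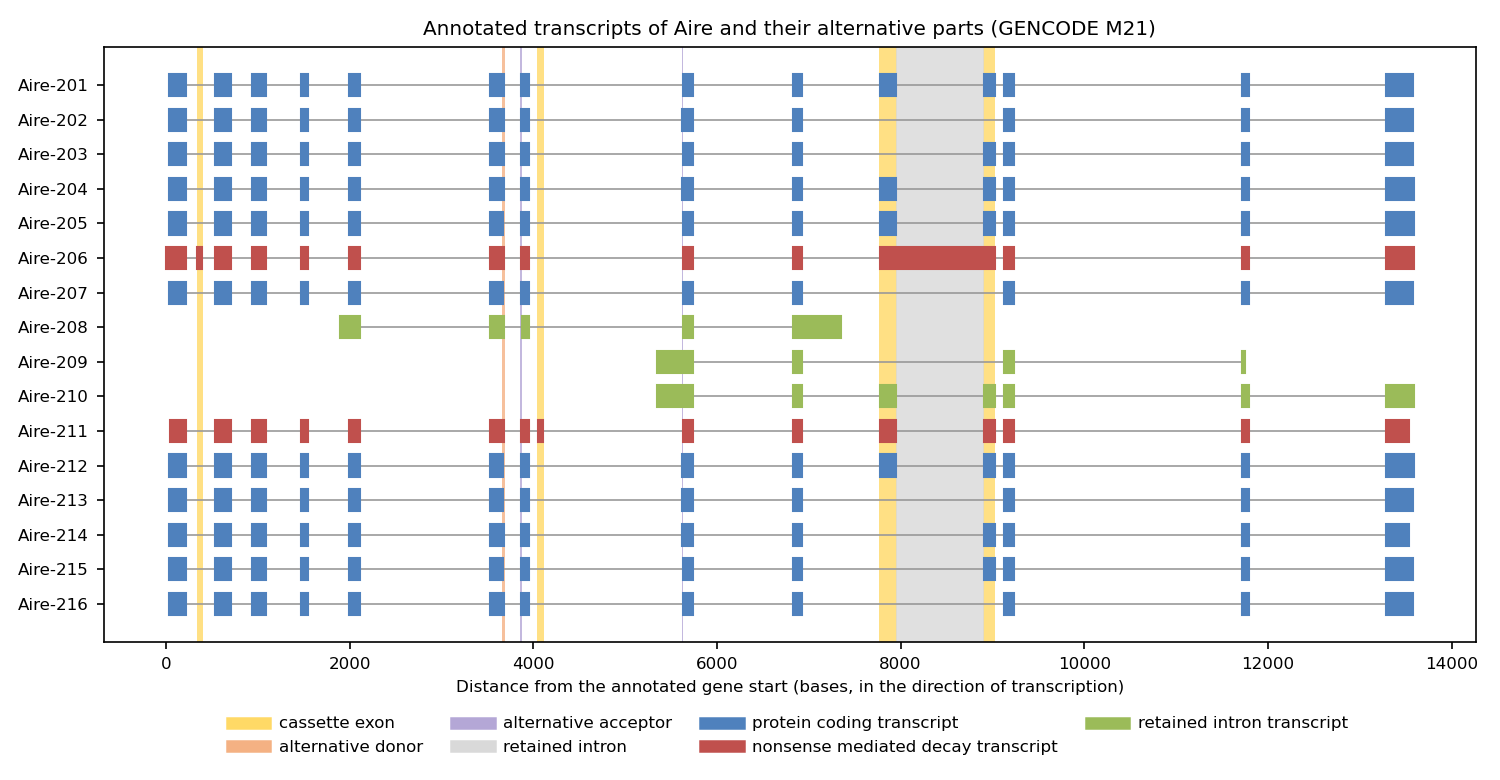
Annotated transcripts of Aire, one per line, with exons as boxes coloured by transcript class and distance from the gene's annotated start on the horizontal axis in bases. Shaded columns mark the alternative parts: the central pair of cassette exons, of 177 and 122 bases, lies between 7777 and 9024 bases, and the exons of 53 and 58 bases each occur in 1 transcript.

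In the Ctr libraries nearly all Aire events sat at an end of the scale. A fraction below 0.01 or above 0.99 was recorded for 9 of 9 events in Ctr library 1 and for 8 of 9 in Ctr library 2, where the exception was event 6 at 0.98997. In the knockdown libraries 5 of 9 events were at an end with Raver2 sh1, and 3 of 9 each with Raver2 sh2, Setd2 sh1 and Setd2 sh2. Over all 4658 events the share at an end was 32.5% to 34.5% in Ctr, 34.3% and 32.8% with Raver2 sh1 and sh2, and 35.7% and 38.7% with Setd2 sh1 and sh2. How many reads stand behind a fraction at an end is unknown, since the deposited values hold fractions alone.

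Events 1 and 2 were the parts of Aire that Ctr cells left out. Event 1 was below 0.01 in both Ctr libraries, 0.108 with Raver2 sh1, 0.122 with Raver2 sh2, 0.0846 with Setd2 sh1 and 0.0677 with Setd2 sh2. Event 2 was below 0.01 in both Ctr libraries, 0.190 with Raver2 sh1, 0.168 with Raver2 sh2, 0.118 with Setd2 sh1 and 0.110 with Setd2 sh2. For both events all 4 knockdown libraries lay above both Ctr libraries, and both Raver2 libraries lay above both Setd2 libraries.

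Event 3 was a part that Ctr cells included fully. It was above 0.99 in both Ctr libraries, 0.892 with Raver2 sh1, 0.890 with Raver2 sh2, 0.925 with Setd2 sh1 and 0.933 with Setd2 sh2. All 4 knockdown libraries were below both Ctr libraries, and both Raver2 libraries were below both Setd2 libraries. Event 8 was likewise above 0.99 in both Ctr libraries, and it was 0.887 with Raver2 sh1, 0.860 with Raver2 sh2, 0.922 with Setd2 sh1 and 0.835 with Setd2 sh2. Here the knockdown libraries were again below Ctr, but the Raver2 values lay between those of the Setd2 hairpins.

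Events 4 and 9 held the same value in each of the 6 libraries and are a single measurement. They were above 0.99 in both Ctr libraries, 0.997 with Raver2 sh1, 0.885 with Raver2 sh2, 0.873 with Setd2 sh1 and 0.98987 with Setd2 sh2. Within each knockdown 1 hairpin was thus near full inclusion and the other was lower. Event 5 was above 0.99 in every library. Event 6 was above 0.99 in every library but Ctr library 2.

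Event 7 was the exception to any grouping by condition. It was above 0.99 in Ctr library 1, below 0.01 in Ctr library 2, below 0.01 with Raver2 sh1, above 0.99 with Raver2 sh2, below 0.01 with Setd2 sh1 and above 0.99 with Setd2 sh2. The libraries of every group were at opposite ends, so the group means of about 0.500 describe none of them. The same held for 7 of 4658 events (0.150%) in 6 genes: Aire, Emilin3, Kif21a, Pars2, Zfp473 and, with 2 events, Sez6l2. These genes were named after their values were seen.

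**Figure D2:**
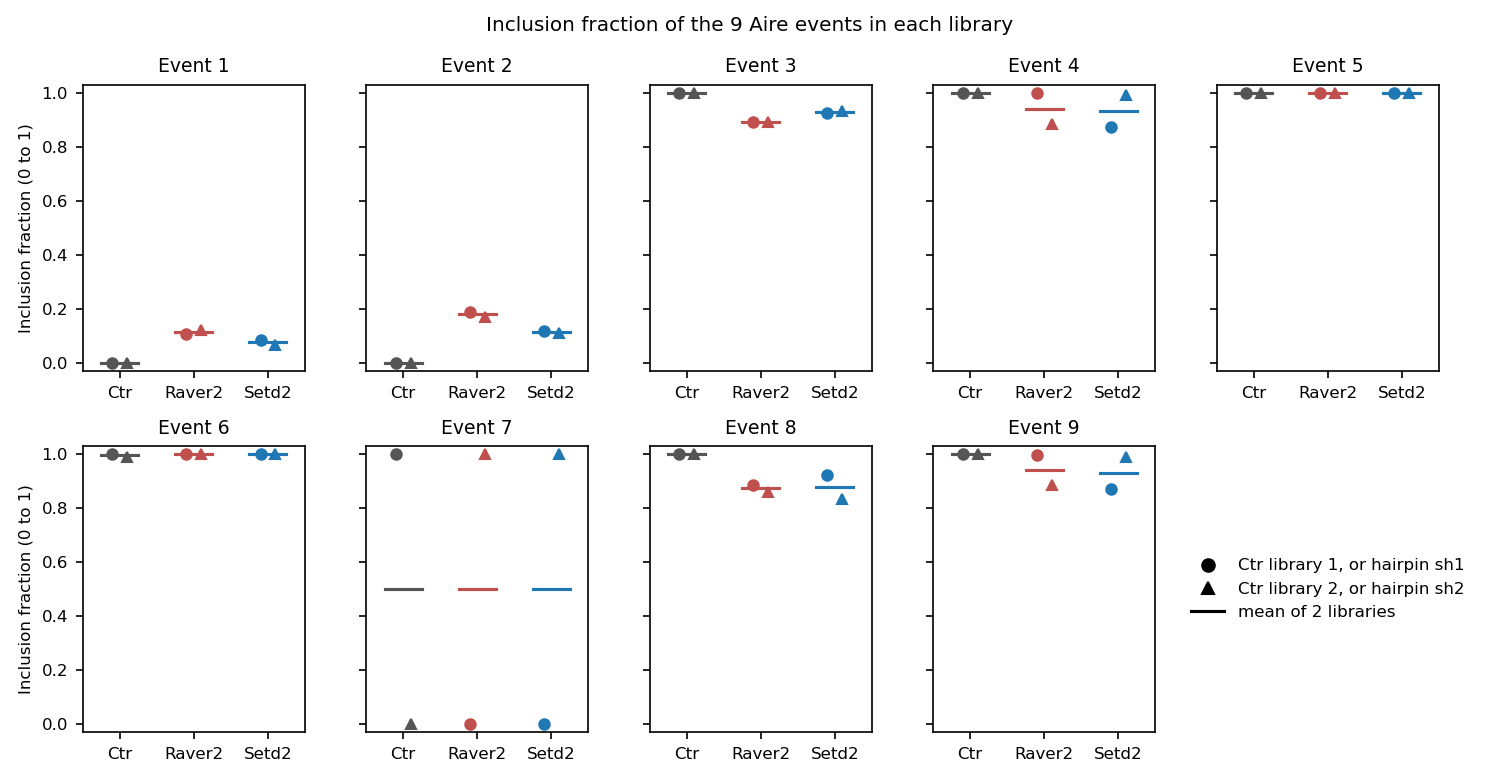
Inclusion fraction (vertical axis, 0 to 1) of each Aire event in the 6 libraries, with circles for Ctr library 1 or hairpin sh1, triangles for Ctr library 2 or hairpin sh2, and a bar at the mean of the 2 libraries of a group. Events 1, 2, 3 and 8 leave the end of the scale in all 4 knockdown libraries, events 4 and 9 are identical, and event 7 lies at opposite ends within each group.

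With Raver2 knockdown, 3 of the 9 Aire events passed the test (limma over all 4658 events, adjusted p under 0.05), 2 higher and 1 lower, where 2.43% of all events passed, 1.01% higher and 1.42% lower. Event 2 rose by 0.179 ± 0.00912 (SE; 95% interval 0.153 to 0.205; adjusted p = 0.00820) to a mean of 0.179 ± 0.0149 (SD, n = 2). Event 1 rose by 0.115 ± 0.00833 (0.0912 to 0.139; adjusted p = 0.0192) to 0.115 ± 0.01001. Event 3 fell by 0.109 ± 0.00464 (adjusted p = 0.00572) to 0.891 ± 0.00131. Event 8 had a difference of -0.126 with a 95% interval of -0.222 to -0.0304 and did not pass (adjusted p = 0.291), its spread being larger. Events 4 and 9 differed from Ctr by -0.0589 (-0.230 to 0.112; adjusted p = 0.792), a value that was -0.115 without Raver2 sh1 and -0.00250 without Raver2 sh2. Events 5, 6 and 7 did not pass either (adjusted p of 0.749 or more).

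With Setd2 knockdown the same 3 events passed, 2 higher and 1 lower, where 2.23% of all events passed, 0.88% higher and 1.35% lower. Event 2 rose by 0.114 ± 0.00912 (SE; 0.0875 to 0.140; limma, adjusted p = 0.0254) to 0.114 ± 0.00627 (SD, n = 2), event 1 rose by 0.0761 ± 0.00833 (0.0523 to 0.09996; adjusted p = 0.0498) to 0.0761 ± 0.0119, and event 3 fell by 0.0708 ± 0.00464 (adjusted p = 0.0190) to 0.929 ± 0.00533. Event 8 differed by -0.122 (-0.217 to -0.0256) and did not pass (adjusted p = 0.304). The comparisons of Raver2 and of Setd2 with Ctr share both Ctr libraries, so the calls of one are not independent of those of the other.

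The mean of both knockdowns differed from Ctr in the same 3 events (limma, mean of the 2 knockdown groups against Ctr in the fit of 3 groups). In this comparison 3.07% of all events passed, 1.33% higher and 1.74% lower. The changes from Ctr were 0.0956 ± 0.00721 (SE) for event 1, 0.146 ± 0.00790 for event 2 and -0.0897 ± 0.00401 for event 3 (adjusted p = 0.0175, 0.0103 and 0.00654). Event 1 missed the threshold without Ctr library 1, Ctr library 2, Raver2 sh2 or Setd2 sh1 (adjusted p = 0.0739, 0.0748, 0.0508 and 0.0506). With the 4 knockdown libraries treated as 1 group, so that the difference between the knockdowns counts as spread, 0 Aire events passed and 4 had an unadjusted p under 0.05, with adjusted p of 0.0796, 0.0901 and 0.0779 for events 1, 2 and 3. Of all 4658 events this fit called 134, against 143 in the fit of 3 groups, and gave 568 an unadjusted p under 0.05, against 595 (12.8%).

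Between the knockdowns 0 of the 9 events passed (limma) and 3 had an unadjusted p under 0.05. Of all events 0.73% passed, 0.408% higher and 0.322% lower, and 6.12% had an unadjusted p under 0.05. The 2 groups did not overlap for 2 events that were higher with Raver2 and 1 that was lower, against 15.3% and 18.4% of all events (33.8% in both directions). Inclusion was higher with Raver2 than with Setd2 knockdown by 0.0389 in event 1 (95% interval 0.0151 to 0.0628; adjusted p = 0.482) and by 0.0650 in event 2 (0.0389 to 0.0911; adjusted p = 0.202), and it differed by -0.0378 in event 3 (-0.0511 to -0.0246; adjusted p = 0.149). These intervals are not corrected for the number of events. In event 8 the difference was -0.00485 (-0.101 to 0.0911), so a difference of up to about that size in either direction is compatible with the values.

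**Figure D3:**
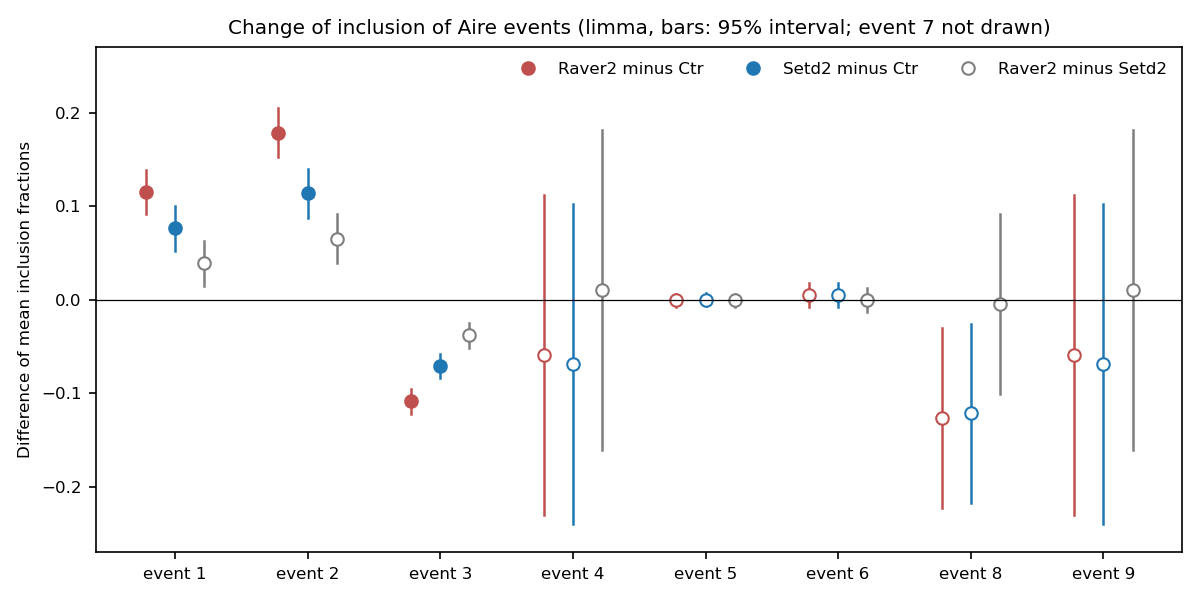
Difference of group means (vertical axis, inclusion fraction) for each Aire event except event 7, with 95% intervals from limma as bars and filled points where adjusted p was under 0.05. Events 1 and 2 are above 0 and event 3 is below 0 in both knockdowns, while the intervals of events 4, 5, 6 and 9 include 0.

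Permuting libraries could not add to these calls. For 2 libraries against 2 the two-sided exact permutation test allows no p under 0.333, which events 1, 2, 3, 4, 8 and 9 reached for each knockdown against Ctr and event 6 for Raver2 alone. For both knockdowns together against Ctr the smallest exact p that this test gives is 0.133, reached by the same 6 events. Groups that do not overlap were also common in the data: with Raver2 knockdown this was so for 3 Aire events that were higher and 4 that were lower, against 20.7% and 23.4% of all events (44.0% in both directions). Among these was event 6, whose distance from Ctr library 1 was below 0.01. With Setd2 knockdown it was so for 2 that were higher and 4 that were lower, against 21.2% and 21.3% (42.5%), and with both knockdowns together for 2 and 4, against 11.9% and 12.3% (24.2%). Each of these counts holds events 4 and 9, which are a single measurement, and events 1 and 3, which are near complements.

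The spread that the test set these changes against was small. The residual SD over the 3 groups was 0.00899 for event 1, 0.00932 for event 2 and 0.00317 for event 3, and 17.4%, 17.7% and 11.2% of all events had a smaller one; the median was 0.0419. For event 8 it was 0.0370 and for events 4 and 9 it was 0.0664. The 2 Ctr libraries differed by less than 0.001 in each of events 1 to 3, and the test takes 1 spread for all groups. The changes were also modest among those called: for Raver2 knockdown the median absolute change of the 113 events called was 0.418, and 38.9% of them had a smaller change than Aire event 2.

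**Figure D4:**
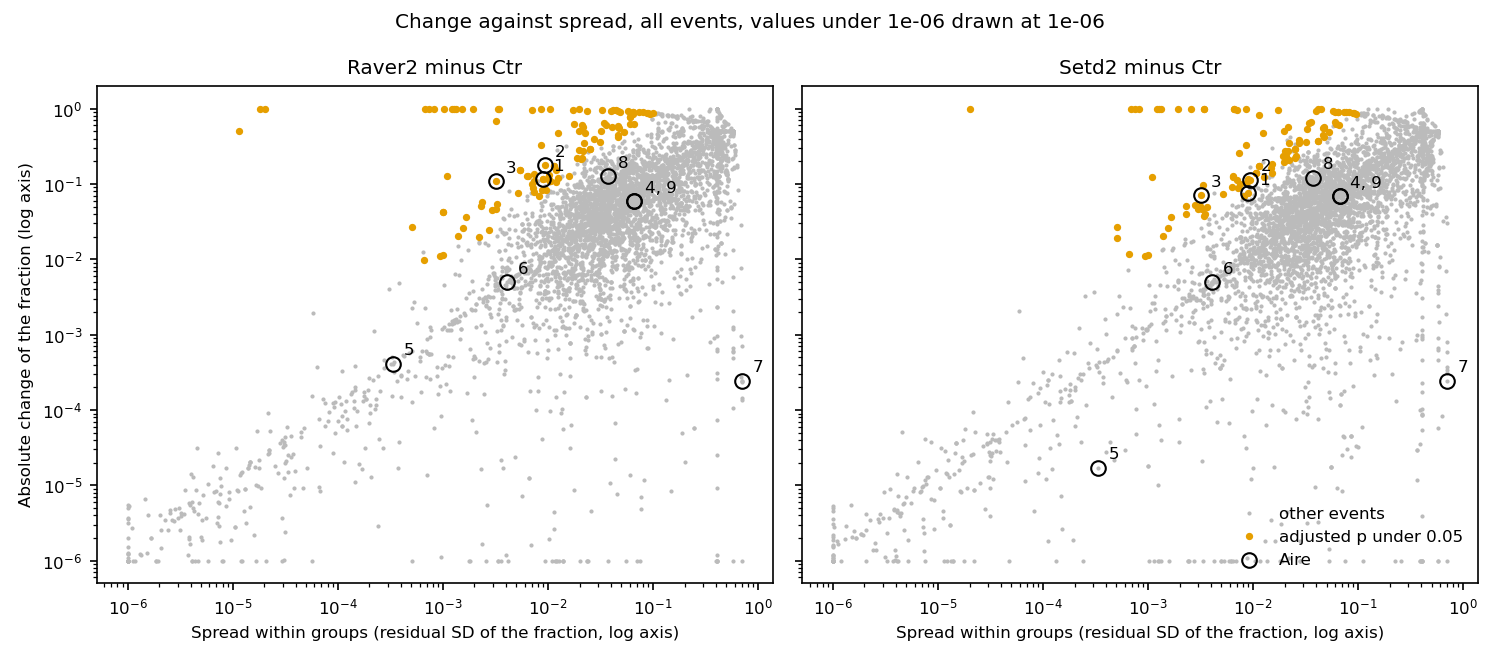
Absolute change of inclusion (vertical, log axis) against the residual SD within groups (horizontal, log axis) for all 4658 events, with events past the threshold in orange and Aire events circled and numbered. Aire events 1, 2 and 3 are among the called events, at a spread below 0.01. Event 8 lies at a like change with a larger spread, and event 7 has the largest spread of the gene.

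The call for Raver2 knockdown was kept under other settings more often than that for Setd2 knockdown. Events 2 and 3 passed under all 13 alternatives for Raver2 and event 1 under 10, failing without Ctr library 1, Ctr library 2 or Raver2 sh2 (adjusted p = 0.0632, 0.0645 and 0.0747). For Setd2, event 3 passed under 9 of 13, event 2 under 7 and event 1 under 2, and none of the 3 passed with only the Ctr and Setd2 libraries in the fit (adjusted p = 0.105, 0.0593 and 0.0637 for events 1, 2 and 3) or without events that are at the ends of the scale in all libraries (adjusted p = 0.123, 0.0699 and 0.123). Without Ctr library 1, Ctr library 2, Setd2 sh1 or Setd2 sh2, event 3 alone still passed for Setd2, and without Raver2 sh1 or Raver2 sh2 event 2 alone did: event 1 then had an adjusted p of 0.0799 to 0.145. Event 1 also missed it with no trend of the variance (0.0723), with robust empirical Bayes (0.0623) and without repeated events (0.0517). The fit with only the Ctr and Setd2 libraries called 0 of all 4658 events (limma, smallest adjusted p = 0.0593), so the failure there was not particular to Aire. The direction of events 1, 2, 3 and 8 against Ctr was the same under every alternative run. This was fixed in advance, since every knockdown library lay on the same side of both Ctr libraries, and it adds no support.

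**Figure D5:**
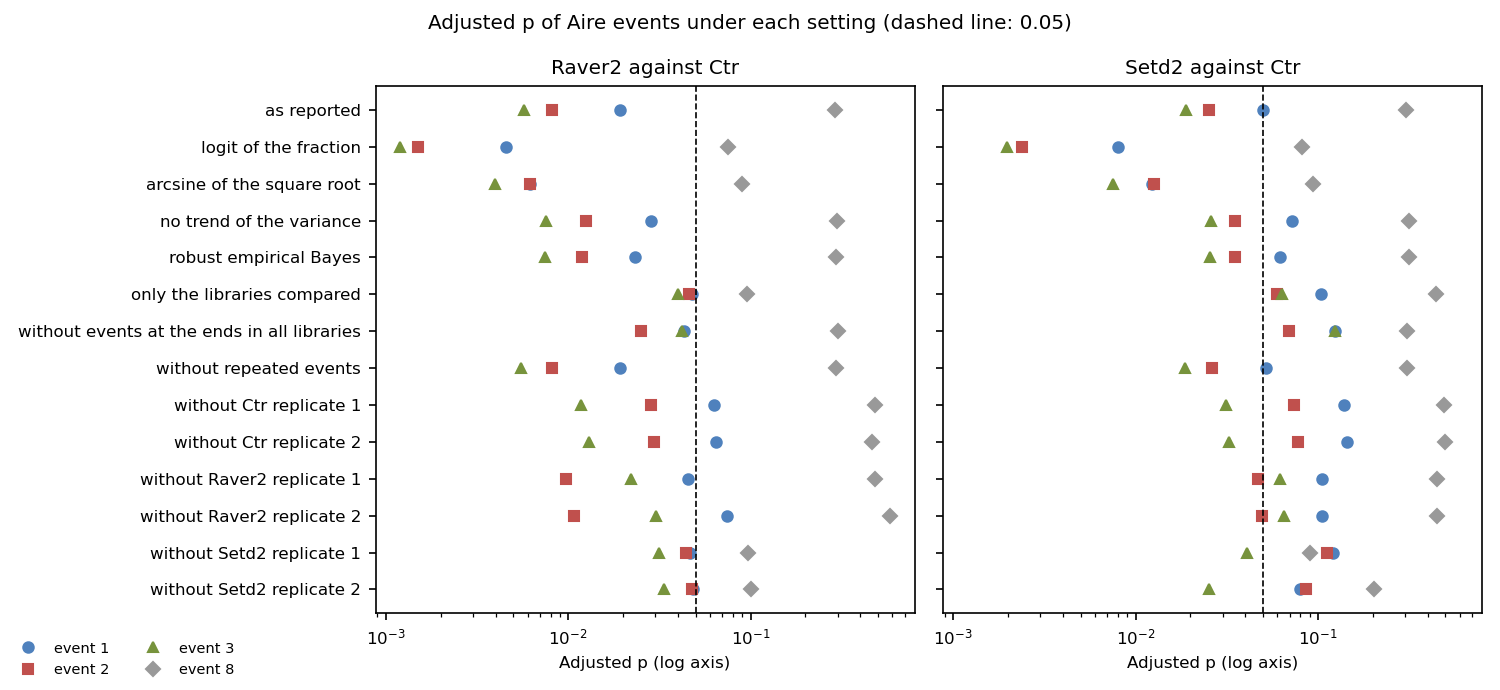
Adjusted p (horizontal, log axis) of Aire events 1, 2, 3 and 8 under the reported and 13 other settings, for Raver2 (left) and Setd2 (right) against Ctr, with a dashed line at 0.05. For Raver2 knockdown events 2 and 3 are left of the line throughout, and for Setd2 knockdown the points of events 1, 2 and 3 lie on both sides of it.

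Among themselves the 9 events held fewer than 9 separate measurements. Of the 36 pairs of events, 1 pair (4 and 9) was identical in every library. Within other genes such repeats were not rare: 132 of the 1008 genes with at least 2 events (13.1%) held a pair with identical values in all libraries. Events 1 and 3 were close to complements: their fractions summed to between 1 and 1.013, so each was within 0.0125 of 1 minus the other, just over the tolerance of 0.01 used to call a pair complementary. The rise of event 1 and the fall of event 3 therefore cannot be counted as separate observations. Event 2 was not tied to either in this way, since it exceeded event 1 by 0.0339 to 0.0815 in the knockdown libraries.

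Events that leave an end of the scale in the knockdowns were few in the whole data set. Of 652 events below 0.01 in both Ctr libraries, 27 (4.14%) lay between 0.01 and 0.99 in all 4 knockdown libraries, among them events 1 and 2 of Aire. Of 322 events above 0.99 in both Ctr libraries, 21 (6.52%) did so, among them events 3 and 8. The reverse also occurred: 47 of 538 events below 0.01 (8.74%) and 21 of 208 above 0.99 (10.1%) in all 4 knockdown libraries lay between the ends in both Ctr libraries. None of these could be an Aire event, since all 9 Aire events were at an end in Ctr library 1. The shares of the directions cannot be compared, since they require unlike numbers of libraries at an end. The class was defined after the Aire values were known, and these counts carry no test. At least 3 called events were found in 3 genes for Raver2 knockdown (Aire, Gm3286 and Serpinh1) and in 4 for Setd2 knockdown (the same and Ank1), and 9 genes had 9 or more events. Aire is among them only if events 1 and 3, which are near complements, are both counted.

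Events of other genes with a like pattern were sought by the root mean square difference of the fractions over the 6 libraries, to the event or to 1 minus it. For both event 1 and event 3 the nearest genes were 2010315B03Rik, Treml4, a receptor gene of myeloid cells, and Cd22, an inhibitory receptor gene of B cells, at root mean square differences of 0.0176 to 0.0239. Event 1 of Cd22 was below 0.01 in both Ctr libraries, 0.0927 and 0.0761 with Raver2 sh1 and sh2, and 0.0519 and 0.0658 with Setd2 sh1 and sh2. For event 2 the nearest were Rnpc3, a protein of the minor spliceosome (0.0380), and Keap1, the sensor that holds back Nrf2 (0.0382). Unlike Aire, both had fractions of 0.0243 to 0.0739 in the Ctr libraries. Event 1 of Cd22 also passed the test with Raver2 knockdown (limma, adjusted p = 0.0347), where 2.43% of all events did. It was picked for its likeness to called Aire events, so its call adds no support to theirs. Likeness over 6 libraries is a description of these values.

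Genes that act with Aire in transcription were read next. Of 41 partners of Aire in transcription, 6 had matched events, and 0 of their 11 events passed in any of the 4 comparisons (limma). The share of all events that passed was 2.43% for Raver2, 2.23% for Setd2 and 3.07% for both against Ctr, and 0.73% between the knockdowns. With 11 events, 0 calls say nothing of these partners as a whole. The largest moderated statistics against Ctr were those of Brd3, a bromodomain protein, with mean fractions of 0.0617 in Ctr, 0.122 with Raver2 and 0.154 with Setd2 knockdown (adjusted p = 0.610 and 0.3899), and Deaf1, a SAND domain regulator, with 0.0308, 0.0585 and 0.0717 (adjusted p = 0.631 and 0.430). The median absolute change of the 11 events was 0.0277 for Raver2 and 0.0409 for Setd2 against Ctr, where all events gave 0.0423 and 0.0412.

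Upstream of Aire, signals from RANK, CD40 and the lymphotoxin receptor reach the gene through NF-kB. Of 36 genes of this route, 8 had 19 matched events. With Raver2 knockdown 1 rose and none fell: event 3 of Tnip1, whose protein restrains NF-kB, from 0.737 ± 0.0299 to 0.956 ± 0.0120 (SD, n = 2; limma, adjusted p = 0.0301). Over all events 1.01% rose and 1.42% fell with Raver2 knockdown, and with 19 events a single call says nothing of the route as a whole. With Setd2 knockdown 0 of the 19 passed, where 2.23% of all events did. Event 3 of Tnip1 stood there at 0.860 ± 0.0164 (limma, adjusted p = 0.123). Event 1 of Cd40, the receptor itself, had means above 0.99 in Ctr, 0.954 with Raver2 and 0.970 with Setd2 knockdown and did not pass (adjusted p = 0.436 for Raver2 against Ctr). The median absolute change was 0.0457 for Raver2 and 0.0333 for Setd2 against Ctr, where all events gave 0.0423 and 0.0412.

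Relatives of Aire with SAND domains or PHD fingers were better represented. Of 70 such genes 19 had 29 matched events, and 0 passed in any comparison (limma). Among all events 2.43% passed for Raver2, 2.23% for Setd2 and 3.07% for both against Ctr, and 0.73% between the knockdowns. With 29 events, 0 calls say nothing of these genes as a whole. The closest for Raver2 was event 1 of Dido1, a PHD finger protein, at 0.951 in Ctr and 0.888 with Raver2 knockdown (adjusted p = 0.271), and for Setd2 event 1 of Zmynd11, a reader of histone H3 lysine 36 trimethylation, at 0.779 and 0.706 (adjusted p = 0.370). The median absolute change was 0.0228 for Raver2 and 0.0251 for Setd2 against Ctr, where all events gave 0.0423 and 0.0412.

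The splicing route of the targeted genes was read in the same way. Raver2, Setd2 and Raver1 had no matched event. Inclusion fractions give no level of expression, so the knockdowns could not be checked in them in any case. Of 26 genes linked to PTB or to histone H3 lysine 36 trimethylation, 10 had 17 matched events and 0 passed (limma). The share of all events that passed was 2.43% for Raver2 and 2.23% for Setd2 against Ctr. With 17 events, 0 calls say nothing of the route as a whole. Both events of Ptbp1, which encodes PTB, missed the threshold in all 4 comparisons (smallest adjusted p = 0.510). Event 1 of Srsf1, an SR protein that promotes exon inclusion, had 0.119 ± 0.0226 in Ctr, 0.384 ± 0.0279 with Raver2 and 0.391 ± 0.0205 with Setd2 knockdown (SD, n = 2; adjusted p = 0.101 and 0.0920).

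Of 37 antigen genes listed as dependent on Aire, 7 had 20 matched events. For each knockdown 1 rose and 1 fell, where 1.01% of all events rose and 1.42% fell for Raver2 and 0.88% and 1.35% for Setd2. These were Kng2, a kininogen gene, from below 0.01 to above 0.99, and Gucy2c, an intestinal receptor gene, from 0.999 to below 0.01 (limma, adjusted p = 0.00186 and 0.00520 for Raver2, 0.00246 and 0.00583 for Setd2). Both were put on the list with their values known and say nothing of Aire targets in general. Event 1 of Myh6, the cardiac myosin heavy chain gene on this list, was the nearest to the mirror image of Aire event 7 (root mean square difference 0.0201): its fraction was 0.0263 and above 0.99 in the Ctr libraries, above 0.99 and 0.0112 with Raver2 sh1 and sh2, and above 0.99 and 0.0401 with Setd2 sh1 and sh2.

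Markers of the cells that the culture or the sort could hold were listed for few genes. Matched events were found for 3 of 15 mTEC markers (Aire, Cd74 and Ctss), 2 of 12 fibroblast markers (Fn1 and Postn), 3 of 13 leukocyte markers (Cd8a, Lck and Ptprc) and 2 of 11 tuft, neuroendocrine or cortical epithelial markers (Cxcl12 and Dclk1). A listed event gives no level of expression, so these fractions do not measure how many such cells were present. The lists held 7 fibroblast, 3 leukocyte and 3 tuft, neuroendocrine or cortical events, and 12 mTEC events of which 9 were Aire's. Apart from Aire's, 1 of these events passed, where 2.43% of all events passed for Raver2 and 2.23% for Setd2. It is named after its values were seen: event 2 of Fn1, the fibronectin gene, fell from 0.127 ± 0.0110 in Ctr to below 0.01 with Raver2 and with Setd2 knockdown (SD, n = 2; limma, adjusted p = 0.00676 and 0.00811). Event 1 of Fn1 differed in the other direction, by 0.0762 for Raver2 and 0.105 for Setd2, and did not pass (adjusted p = 0.345 and 0.201). The part of other cells in the Aire values was not tested.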

How the data were processed

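Per the labels' protocols, libraries were made from total RNA with SMART-seq v4 and Nextera XT. The authors deposited 1 inclusion fraction per event. The submitters' processing notes list Trimmomatic 0.39, TopHat2, Cufflinks and mm10 without their roles; how the fraction was computed, the event class and any coverage filter remain not given in the sources used here. The depth per library is likewise unknown, so the values carry no counting interval.

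Events were matched by gene and order within the gene; 2685 of 2898 genes had the same number of events in all 6 libraries. In genes with several events, fractions correlated across libraries at 0.742 to 0.802 in the same order and at 0.0864 to 0.133 with the order shifted by 1. The fractions were fitted with limma 3.58.1 (R 4.3.3): a mean per group, all 6 libraries, 3 residual degrees of freedom, variance trend, two-sided contrasts, Benjamini-Hochberg adjustment over 4658 events, threshold 0.05. The procedure was tested on simulated fractions with planted changes larger than those of the called Aire events, so changes of their size were not covered. Exact permutation tests used scipy 1.17.1. Every Aire event is named, with the 3 genes of most like pattern for each called event, of which 1 is not reported here; of each list, called members and up to 2 others by moderated statistic were eligible, and the text names some of these. The gene, lists and alternatives were chosen with earlier results of these data known. Alternatives changed the scale, variance model, event filter and libraries. Structure and sequences came from GENCODE M21 (GRCm38, the assembly of mm10).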

Additional observations from a re-analysis of the deposited data

How the results depend on the processing

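Events 1, 2 and 3 of Aire kept their direction under every alternative in the comparisons with Ctr. They could not do otherwise, since every knockdown library lay on the same side of both Ctr libraries. For Raver2 against Ctr the number of Aire events called stayed at 2 or 3. For Setd2 against Ctr it was 0 with only the libraries compared (limma; 3 at an unadjusted p under 0.05), 0 without events at the ends in all libraries (4 at an unadjusted p under 0.05) and 1 without any single library. For both knockdowns against Ctr it was 0 with the knockdowns merged into 1 group of 4 (4 at an unadjusted p under 0.05; 134 of all 4658 events were called there), and on the logit scale event 8 was called as well (adjusted p = 0.0489). Which property of these settings moved the calls was not tested.

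Over all events, Raver2 against Ctr called 113, with 75 from only the libraries compared, 73 without events at the ends in all libraries, and 74 to 291 without single libraries (291 without Ctr library 1, 280 without Ctr library 2, 74 without Setd2 sh2). Setd2 against Ctr called 104, with 0 (554 at an unadjusted p under 0.05), 53, and 48 to 279 in the same order (279 and 261 without Ctr library 1 and 2, 54 and 48 without Raver2 sh1 and sh2). Raver2 against Setd2 called 34, with 15 without events at the ends and 46 to 119 without single libraries (56 without Ctr library 2, 119, 97, 67 and 106 without Raver2 sh1, Raver2 sh2, Setd2 sh1 and Setd2 sh2). Both knockdowns against Ctr called 143, with 77 without events at the ends and 101 to 297 without single libraries (297 and 279 without Ctr library 1 and 2).

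Hairpin numbers are shared by the knockdowns, but hairpins against different targets share only a number (correlation of deviations from the group means 0.0146 across events). With the hairpin number as a replicate block, Raver2 against Setd2 called 0 events (limma; 265 at an unadjusted p under 0.05, 2 of them in Aire). Group means and a block fitted to the knockdown libraries alone left little to estimate the spread from. The smallest adjusted p of any event was 0.504 (limma), so the 0 calls say nothing of Aire.

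Without single libraries, differences reversed only in events that did not pass. Event 7 ranged from -0.500 to 0.500 for each comparison (-0.5002 to 0.4998 for either knockdown and -0.5 to 0.4995 for both knockdowns against Ctr). Events 4 and 9 kept their sign against Ctr but ranged from -0.115 to -0.00250 for Raver2 and from -0.127 to -0.0101 for Setd2. Between the knockdowns events 4 and 9 ranged from -0.0488 to 0.0685, event 8 from -0.0482 to 0.0385, event 5 from -0.000804 to 1.72e-05 and event 6 from -1.11e-16 to 3.18e-07. Event 5 ranged from -0.000822 to 2.66e-15 for Raver2 and from -3.44e-05 to 2.66e-15 for Setd2 against Ctr, and event 6 from -1.59e-07 to 0.01003 for Setd2 and from -7.96e-08 to 0.01003 for both against Ctr. Where a library was left out, the remaining one of its group was taken to vary like the other groups.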
